A study of Homo sapiens with 2 samples.

Results

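Genes of pericellular proteolysis were compared in oral squamous carcinoma cells after inhibition of the microRNA miR-361-3p. The 10 genes were 5 matrix metalloproteinases (MMP1, MMP9, MMP10, MMP13 and MMP14), 3 tissue inhibitors of metalloproteinases (TIMP1, TIMP2 and TIMP3), the urokinase gene PLAU and its receptor gene PLAUR. They were chosen by name, and every probe set annotated to a single one of these symbols was taken, which gave 29 probe sets of 49386 on the array and 10 genes of 18239. No probe set listed a member together with another gene. Both groups were GFP-SAS cells, a tongue squamous cell carcinoma line carrying green fluorescent protein. The anti-miR cells received 25 nM of an LNA/DNA oligonucleotide directed at miR-361-3p for 24 h, and the control cells received the same dose of a non-target LNA/DNA oligonucleotide for the same time. Each group was hybridised to 1 Affymetrix 3' expression array, from 10 ng of total RNA. There was therefore no spread between cultures to set a difference against, and no p-value is given. A single cell line treated with 1 oligonucleotide per group also cannot separate the loss of the microRNA from other effects of that oligonucleotide.

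Matrix metalloproteinases are zinc-dependent endopeptidases that are made as inactive precursors and cut collagens and other matrix proteins once their propeptide is removed. TIMP proteins block them by binding in the active site. Urokinase, held at the cell surface by its receptor, turns plasminogen into plasmin, which degrades fibrin and matrix proteins and can activate several metalloproteinase precursors. In carcinomas of the mouth these genes are studied for their part in invasion.

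The microRNA that the anti-miR oligonucleotide was directed at is shown because it defines the treatment. Its mature sequence in RefSeq lies at chrX:85903641-85903663 on the minus strand of GRCh38.p14, and capitals mark the seed, bases 2 to 8.
hsa-miR-361-3p: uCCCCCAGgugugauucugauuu
Sites of this seed in the member transcripts were not searched, as no transcript sequences were used here.

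Values are RMA expression values on the log2 scale, and differences are given as anti-miR minus control. Probe sets at or above the array's median (4.64 for anti-miR cells and 4.63 for control cells) in at least 1 of the groups were retained, and a gene value is the mean over its retained probe sets. Of the 29 member probe sets 24 were retained, and 9 of the 10 genes had a gene value; MMP10 had none. The ± given with a gene is the SD over its probe sets on the same 2 arrays. It describes the spread between probe sets and not between cultures, and probe sets of a gene can share probes. Across all genes the median difference was 0.13, with quartiles of -0.21 and 0.33, so small positive values were common on the anti-miR array. Probe sets for poly-A transcripts spiked into the RNA before labelling were also higher there, with a mean difference of 0.32 ± 0.19 (SD over 12 probe sets). The 23 nonspecific control probe sets, built to match no transcript, reached 7.16 in anti-miR cells and 6.87 in control cells. That level is a strict limit, as it exceeded the upper quartile of each array (6.53 for anti-miR cells and 6.62 for control cells). Member values below it were not shown to be above background, nor shown to be background. Folds that rest on them are not exact sizes.

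PLAU was 2.19-fold lower in anti-miR cells, and MMP1 was 1.52-fold higher. These were the only members past 1.5-fold, 1 lower and 1 higher of 9 with a gene value. Over all 11272 genes with a value, 14.2% were at least 1.5-fold lower and 8.23% at least 1.5-fold higher, so counts of 1 in 9 in each direction were close to the background. The member genes had a median difference of 0.21, against 0.13 over all genes. Relative to the median gene the member median was 0.078. By probe set, 4 of the 24 retained ones were at least 1.5-fold lower and 1 was at least 1.5-fold higher, while 16.9% and 8.6% of the 24127 retained probe sets of single genes passed those thresholds.

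**Figure D1:**
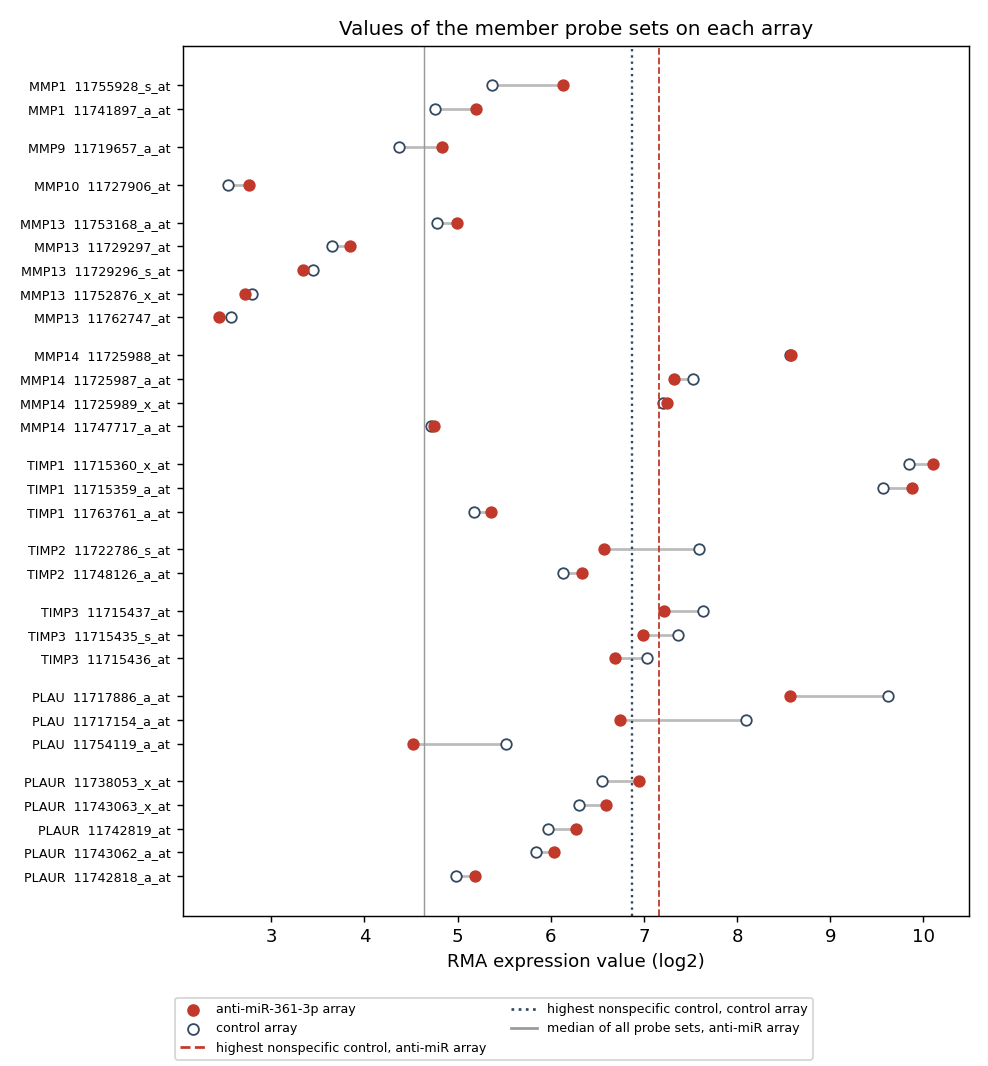
RMA expression values (log2, horizontal axis) of the 29 member probe sets, 1 row each, on the anti-miR array (filled) and the control array (open). All 3 PLAU rows have the anti-miR point to the left, and all 5 PLAUR rows have it to the right; all MMP1, MMP9, MMP10, MMP13 and PLAUR points lie left of the highest nonspecific control of their own array (dashed for anti-miR, dotted for control).

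PLAU encodes urokinase, the serine protease that cleaves plasminogen. Its 3 probe sets read 8.57, 6.74 and 4.52 in anti-miR cells, against 9.62, 8.10 and 5.52 in control cells. All 3 were lower on the anti-miR array, by 2.06-fold, 2.56-fold and 1.99-fold in that order. The gene value was 6.61 in anti-miR cells and 7.74 in control cells, a difference of -1.13 ± 0.20 (SD over 3 probe sets). The brightest probe set lay above the nonspecific controls on both arrays, and it carried a fold close to that of the others. The dimmest lay within their range on both arrays and was retained through the control array alone. PLAU ranked 611 of 11272 genes by decrease, and 5.41% of genes had a lower difference. Relative to the median gene it differed by -1.26.

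Gene length moved with the differences on these arrays, so each member is also given beside genes of similar genomic span. Among 2579 genes spanning up to 10 kb the median difference was 0.26, and 49 of them, 1.9%, were at least 1.5-fold lower. PLAU, with a span of 8.66 kb, ranked 9 of these 2579 by decrease, and its difference minus their median was -1.39. In the class of 60 to 100 kb, 24.3% of 1270 genes were at least 1.5-fold lower, and above 100 kb 47.6% of 1806 genes were. The part of gene length in the difference of any member was not tested.

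PLAUR encodes the glycolipid-anchored receptor that holds urokinase at the cell surface. Its 5 probe sets read 6.95, 6.59, 6.27, 6.03 and 5.19 in anti-miR cells, against 6.55, 6.30, 5.97, 5.84 and 4.99 in control cells. Each was higher on the anti-miR array, by 0.19 to 0.40 on the log2 scale, and none passed 1.5-fold. The gene difference was 0.27 ± 0.08 (SD over 5 probe sets), inside the quartiles of all genes and smaller than the 0.32 of the poly-A spikes. It was 0.14 relative to the median gene and 0.040 relative to genes of 10 to 30 kb, the class of its 24.1 kb span. All 5 probe sets lay within the range of the nonspecific controls on both arrays. The differences of ligand and receptor were thus unequal: PLAU minus PLAUR came to -1.41.

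The sequences just upstream of the start sites of PLAU and PLAUR are shown because PLAU was past 1.5-fold lower and its receptor gene was not. The PLAUR difference lay inside the quartiles of all genes, so no opposite change is claimed. They are the 250 bases before the start in RefSeq GRCh38.p14, chr10:73910882-73911131 on the plus strand for PLAU and chr19:43670170-43670419 on the minus strand for PLAUR. Capitals mark the AP-1 motif TGANTCA and the GC box GGGCGG, found on either strand; matches of these motifs did not overlap each other.
PLAU: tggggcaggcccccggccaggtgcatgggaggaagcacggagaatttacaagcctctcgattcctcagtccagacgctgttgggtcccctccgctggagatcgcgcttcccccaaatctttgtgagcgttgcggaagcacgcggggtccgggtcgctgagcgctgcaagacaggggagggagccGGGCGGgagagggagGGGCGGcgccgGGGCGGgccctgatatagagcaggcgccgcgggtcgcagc
PLAUR: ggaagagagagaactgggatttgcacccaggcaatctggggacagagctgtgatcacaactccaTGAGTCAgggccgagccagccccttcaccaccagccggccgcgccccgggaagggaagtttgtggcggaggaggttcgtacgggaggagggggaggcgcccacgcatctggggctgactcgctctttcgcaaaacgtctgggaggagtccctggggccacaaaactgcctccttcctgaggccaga
The PLAU window held 3 GC boxes, between 66 and 35 bases before the start, and no AP-1 motif. The PLAUR window held 1 AP-1 motif, 186 to 180 bases before the start, and no GC box. A second PLAU start, chr10:73910360-73910609 on the plus strand, held neither. RefSeq windows were matched for 6 of the 10 members, 7 windows in all. AP-1 motifs were in 2 of the 7 (PLAUR and MMP10), against 6.57% of 35116 windows of this length, and GC boxes in 4 (PLAU, MMP14, TIMP1 and TIMP3), against 42.6%. The TATA letters TATAAA were in 1 (MMP10), against 10.7%. A match describes these letters only, and sites outside the window were not searched. Whether any motif bore on the difference of PLAU or PLAUR was not tested.

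**Figure D2:**
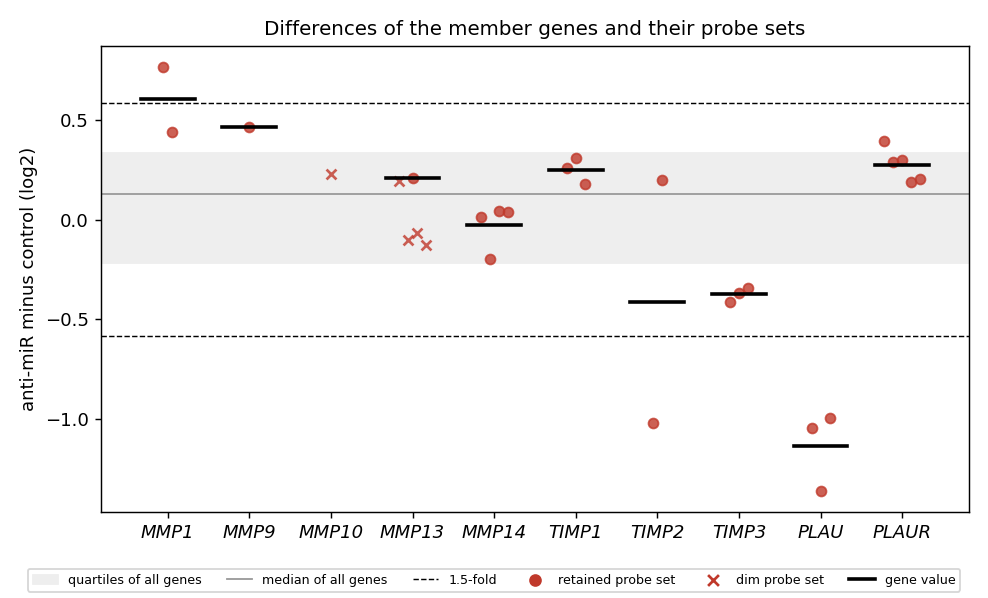
Difference of each member (anti-miR minus control, log2, vertical axis) by probe set (points; crosses are dim probe sets not used for the gene value) and as the gene value (bars), over the quartiles of all genes (grey band, -0.21 to 0.33). PLAU lies at -1.13 with its 3 probe sets together, while the 2 TIMP2 probe sets lie at -1.02 and 0.20.

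The 5 metalloproteinases had 13 probe sets, 8 of them retained. MMP1, the interstitial collagenase that cuts fibrillar collagen, had values of 6.13 and 5.20 in anti-miR cells, against 5.37 and 4.76 in control cells. Both probe sets were higher in anti-miR cells, by 0.76 and 0.44, and the first of them alone passed 1.5-fold. The gene difference was 0.60 ± 0.23 (SD over 2 probe sets), just past the threshold of 0.58. All 4 values lay within the range of the nonspecific controls, so the fold of 1.52 is not an exact size. Relative to the median gene MMP1 differed by 0.47, and relative to genes of up to 10 kb by 0.35, both short of 1.5-fold. Without probe sets of the _s_at class, which can match several transcripts, it differed by 0.44.

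MMP9, the gelatinase that cuts denatured collagen and basement membrane collagen, read 4.83 in anti-miR cells and 4.37 in control cells on its 1 probe set. The difference of 0.46 was short of 1.5-fold, and it was above the upper quartile of all genes. In control cells this probe set was below the median of the array, so it was retained through the anti-miR array alone. The filter thus favoured a positive difference for MMP9. MMP13, a collagenase, had 5 probe sets, of which 1 was retained, with 4.99 in anti-miR cells and 4.78 in control cells. That probe set differed by 0.21, while the 4 dim ones differed by -0.13 to 0.19, and the mean over all 5 was 0.020. Relative to genes of 10 to 30 kb the retained one differed by -0.026. MMP10, a stromelysin, read 2.76 in anti-miR cells and 2.53 in control cells on 1 probe set. It lay below the median on both arrays and entered no gene count. For MMP9, MMP10 and MMP13 none of the probe sets was above the nonspecific controls on either array, so whether these transcripts were present was not settled by the values.

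MMP14, the membrane-anchored metalloproteinase that activates the MMP2 precursor, was the member metalloproteinase with values above the nonspecific controls on both arrays. Its 4 probe sets read 8.58, 7.32, 7.24 and 4.75 in anti-miR cells, against 8.56, 7.52, 7.20 and 4.71 in control cells. Of these 3 were higher by at most 0.045 and 1 was lower by 0.20 on the anti-miR array. The gene difference was -0.026 ± 0.12 (SD over 4 probe sets). The direction of so small a value was not stable: it was 0.026 with the median of the probe sets and -0.16 relative to the median gene. Beside genes of 10 to 30 kb, whose median was 0.23, MMP14 differed by -0.26.

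The 3 inhibitor genes differed among themselves. TIMP1, which also binds the MMP9 precursor, read 10.10, 9.88 and 5.36 in anti-miR cells, against 9.84, 9.57 and 5.18 in control cells. Each probe set was higher on the anti-miR array, and the gene difference was 0.25 ± 0.06 (SD over 3 probe sets). This was inside the quartiles of all genes and below the poly-A spikes. Relative to genes of up to 10 kb TIMP1 differed by -0.0074, that is, it had the value usual for its length class.

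TIMP3, the inhibitor that binds to the extracellular matrix, read 7.22, 6.99 and 6.69 in anti-miR cells, against 7.63, 7.36 and 7.03 in control cells. All 3 probe sets were lower on the anti-miR array, by 0.34 to 0.41, with a gene difference of -0.37 ± 0.04 (SD over 3 probe sets). The difference was short of 1.5-fold, and 19.6% of all genes had a lower one. TIMP3 spans 61.3 kb, and its difference lay inside the quartiles of genes of 60 to 100 kb, -0.57 and 0.14. The brightest of its probe sets was above the nonspecific controls on both arrays.

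TIMP2, which inhibits metalloproteinases and takes part with MMP14 in activation of the MMP2 precursor, gave 2 probe sets that disagreed. The first read 6.57 in anti-miR cells and 7.59 in control cells, 2.03-fold lower. The second read 6.33 in anti-miR cells and 6.14 in control cells, a difference of 0.20. The gene value of -0.41 ± 0.86 (SD over 2 probe sets) therefore averages opposite directions and describes neither. The first probe set is of the _s_at class and was above the nonspecific controls on the control array alone. Probe positions in the transcript were not used here, and whether the 2 probe sets read different TIMP2 transcripts was not tested. TIMP2 has the longest span of the members, 72.4 kb. Its gene value lay inside the quartiles of its length class, -0.57 and 0.14, but only as an average. The first probe set lay below that band and the second above it.

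**Figure D3:**
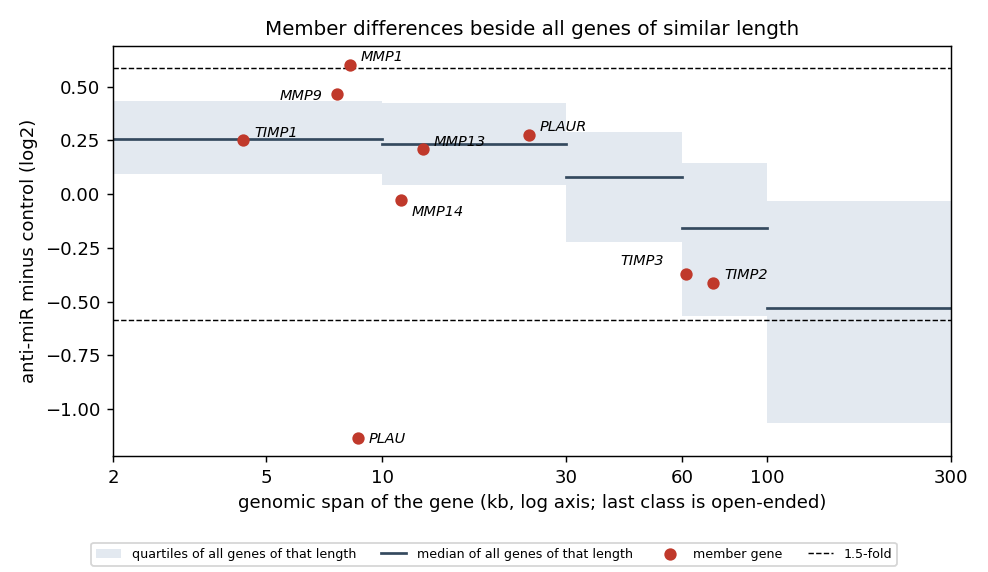
Gene differences (anti-miR minus control, log2, vertical axis) of the 9 members with a gene value against the genomic span of the gene (kb, log axis), over the median (lines) and quartiles (bands) of all genes in 5 length classes. PLAU lies far below the band of genes of up to 10 kb, while TIMP1, TIMP2, TIMP3, MMP13 and PLAUR lie inside the bands of their classes. The TIMP2 value averages probe sets that lie below and above its band.

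Of the 9 members with a gene value, 5 lay inside the quartiles of all genes of their own length class (TIMP1, TIMP2, TIMP3, MMP13 and PLAUR). TIMP2 did so only as an average of probe sets that lay below and above that band. PLAU and MMP14 lay below the lower quartile of theirs, and MMP1 and MMP9 above the upper one. MMP9 was retained through the anti-miR array alone, so the filter favoured a positive difference for it. The values of enzyme and inhibitor can be set side by side without a test. MMP9 differed by 0.46 and TIMP1 by 0.25, MMP1 by 0.60 against the same TIMP1 value, and MMP14 by -0.026 against -0.41 for TIMP2. That TIMP2 value averages opposite directions.

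Related genes were read from lists of the same system. The background for their counts is the share over all genes, 14.2% at least 1.5-fold lower and 8.23% at least 1.5-fold higher. Of 17 other metalloproteinase genes 6 were retained, and 0 of these were past 1.5-fold in either direction. Their differences ran from 0.22 to 0.30, with a median of 0.27, all below the 0.32 of the poly-A spikes. With all probe sets kept, the median over the 17 genes was 0.12. Among the 6 retained genes, MMP11 and the dimmer MMP2 probe set passed the filter through the anti-miR array alone. The filter thus favoured positive differences for them. Apart from the brightest MMP2 probe set on the control array, the values of these 6 genes lay within the nonspecific range. MMP2, the gelatinase activated through MMP14, had the highest level among them and differed by 0.23 ± 0.12 (SD over 2 probe sets), with 5.95 in anti-miR cells and 5.71 in control cells. Of 10 other plasminogen activation genes with a probe set 9 were retained, and 0 were past the threshold, with a median of 0.059. S100A10, a plasminogen-binding surface protein, read 11.64 in anti-miR cells and 11.61 in control cells. PLAT, the tissue-type plasminogen activator, differed by -0.048, and SERPINB5, a serpin of epithelial cells, by 0.44; both were named after their values were seen.

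Among 12 activators and surface regulators of metalloproteinases 9 were retained, of which 4 were at least 1.5-fold lower and 0 higher, with a median of -0.25. Over all genes 14.2% were lower and 8.23% higher by that threshold. ITGAV, an integrin subunit, was 5.13-fold lower, with 4.27 in anti-miR cells and 6.63 in control cells. With its dim probe sets kept it differed by -1.28, and on the anti-miR array its brightest probe set, at 5.74, lay within the nonspecific range. The gene value of 4.27 was below the anti-miR array's median, so a probe set was retained through the control array alone. The filter thus favoured a negative difference for ITGAV. CD44, the hyaluronan receptor that can dock metalloproteinases at the cell surface, was 2.01-fold lower, with a difference of -1.01 ± 0.41 (SD over 10 probe sets). CAV1, the caveolar coat protein, was 1.81-fold lower, with 11.57 in anti-miR cells and 12.42 in control cells. TIMP4, the remaining TIMP gene, was 1.53-fold lower on 1 probe set, with 4.53 in anti-miR cells and 5.14 in control cells, both within the nonspecific range. That probe set was retained through the control array alone. ITGB1, an integrin subunit with the highest level of the others, differed by -0.25 ± 0.05 (SD over 4 probe sets). BSG, the surface glycoprotein basigin, named after its value was seen, differed by 0.32. ITGAV and CD44 are long genes, of 90.8 kb and 93.2 kb, CAV1 spans 36.2 kb, and TIMP4 is short, at 5.85 kb. Among all genes of 60 to 100 kb 24.3% were at least 1.5-fold lower, and among those of 30 to 60 kb 10.8%. The share among genes of up to 10 kb was 1.9%.

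Of 11 retained genes of basement membrane and matrix proteins, 3 were at least 1.5-fold lower and 0 higher, with a median of -0.28. Over all genes 14.2% were lower and 8.23% higher by that threshold. COL4A5 and COL4A1, chains of basement membrane collagen, were 3.00-fold and 2.03-fold lower, and FN1, fibronectin, was 1.86-fold lower. COL4A5 read 4.31 in anti-miR cells and 5.90 in control cells, and COL4A1 6.48 in anti-miR cells and 7.50 in control cells. With dim probe sets kept they differed by -1.01 and -0.71. The brightest COL4A5 probe set read 5.07 in anti-miR cells, within the nonspecific range. The COL4A5 gene value of 4.31 was below the anti-miR array's median, so a probe set was retained through the control array alone. The filter thus favoured a negative difference for COL4A5. FN1 differed by -0.90 ± 0.52 (SD over 8 probe sets), and its probe sets ran from -1.15 to 0.35. COL4A5, COL4A1 and FN1 span 258, 158 and 75.2 kb in that order. Among all genes above 100 kb 47.6% were at least 1.5-fold lower, and among those of 60 to 100 kb 24.3%. LAMC1, a laminin chain with the highest level of the others, differed by -0.28 ± 0.10 (SD over 4 probe sets). Of 12 retained extracellular proteases and their inhibitors, 1 was lower and 0 were higher, with a median of 0.031. Neither count was above the shares over all genes. The lower one was PRSS23, a secreted serine protease, at 1.79-fold with 8.33 in anti-miR cells and 9.17 in control cells, and it spans 162 kb. SPINT2, an inhibitor of serine proteases, had the highest level of the others and differed by -0.14.

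AP-1 and ETS factors can bind the promoters of PLAU and of several metalloproteinase genes. All 12 listed factors were retained, 2 were at least 1.5-fold lower and 0 were higher, with a median of -0.18. Over all genes 14.2% were at least 1.5-fold lower, so 2 of 12 was close to the background. ETV5, an ETS factor, was 5.10-fold lower, with a difference of -2.35 ± 0.99 (SD over 4 probe sets). Its brightest probe set on the anti-miR array read 4.83, within the nonspecific range. The ETV5 gene value of 4.02 in anti-miR cells was below that array's median. Part of its probe sets was thus retained through the control array alone, and the filter favoured a negative difference for ETV5. ETS1 was 1.74-fold lower, with 7.06 in anti-miR cells and 7.86 in control cells. ETV5 spans 62.8 kb and ETS1 129 kb. In their length classes 24.3% and 47.6% of all genes were at least 1.5-fold lower. FOSL1 and JUN, named after their values were seen, differed by -0.52 ± 0.15 (SD over 6 probe sets) and -0.43 ± 0.23 (SD over 4 probe sets), short of 1.5-fold. They span 8.50 and 3.26 kb, and the lower quartile of all genes of up to 10 kb was 0.094. The other AP-1 genes of the list, also named after the fact, went both ways. JUNB, JUND and FOSB differed by 0.27, 0.17 and 0.12, and FOS and FOSL2 by -0.15 and -0.22. ELK3, an ETS factor with the highest level of those within 1.5-fold, differed by -0.21. Whether any of these factors bore on the level of PLAU was not tested.

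**Figure D4:**
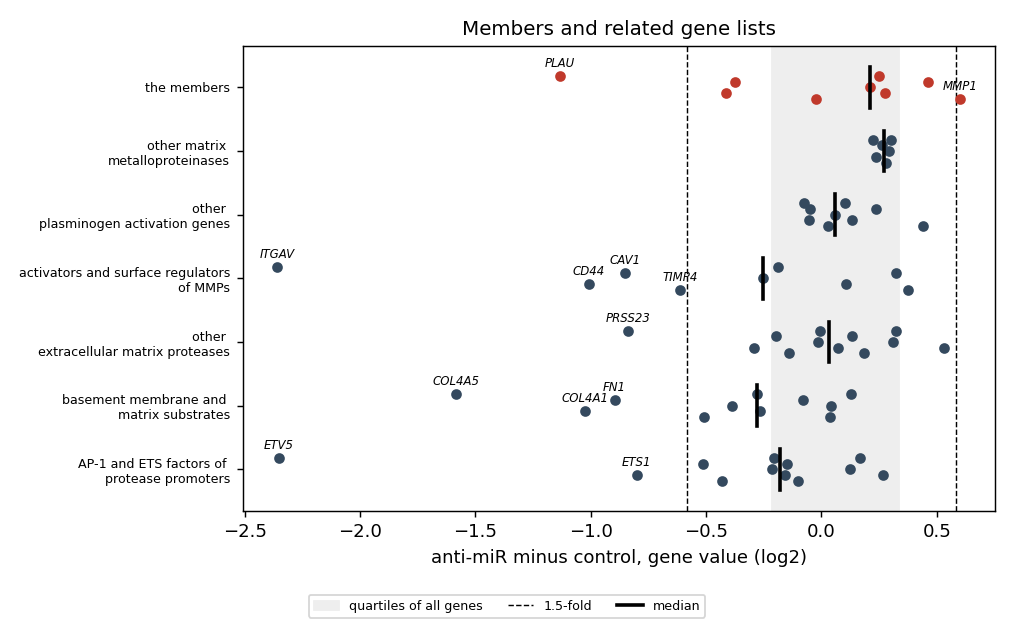
Gene differences (anti-miR minus control, log2, horizontal axis) of the members and of 6 related lists, 1 point a gene, with black bars at each median and the quartiles of all genes in grey; genes past 1.5-fold are named. PLAU at -1.13 and MMP1 at 0.60 are the members outside the dashed lines, and the other metalloproteinases sit between 0.22 and 0.30.

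The label of a squamous carcinoma line was checked against markers. Of 8 squamous epithelial markers with a probe set 6 were retained, and 0 were past 1.5-fold. EPCAM, an epithelial adhesion molecule, read 11.14 in anti-miR cells and 11.28 in control cells, and KRT5, a keratin of basal squamous cells, 8.89 in anti-miR cells and 9.08 in control cells. KRT14, the partner keratin of KRT5, was dim, with 3.87 in anti-miR cells and 3.63 in control cells. DSC3, a desmosomal cadherin, was dim as well, with 3.15 in anti-miR cells and 3.05 in control cells. CDH1, DSG3, SFN and LAMB3 were the other retained markers. The list held 12 genes, and the 4 beyond these 8 were not analysed here. Of 8 fibroblast markers 1, COL6A3, was retained, and it differed by -0.46. The mean values of all fibroblast markers ran from 2.36 to 4.68 in anti-miR cells and from 2.30 to 4.94 in control cells, below the nonspecific controls of both arrays. Summed over the 8 genes, their log2 values came to 26.4 in anti-miR cells and 26.0 in control cells. Of 6 leukocyte markers with a probe set 1 was retained and of 6 endothelial markers 2 were, all within 1.5-fold.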

How the data were processed

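The authors deposited log2 expression values for each probe set. These came from RMA, as the submitters' processing notes state; which version was run, and on which arrays jointly, is not given in the sources used here. RMA corrects background, aligns the distributions of arrays and summarises probes, so genuine shifts of the whole distribution are removed. After sorting, the values of the 2 arrays were within 0.11 of each other. The platform annotation gave 45259 of 49386 probe sets 1 gene symbol, 1327 several and 2800 none; 93 array controls were left out. Symbols were updated by Entrez ID to RefSeq GRCh38.p14 (45172 matched). The expression files name no build, so no coordinates are given for probe sets or genes and span is used as a property; coordinates appear only with RefSeq sequences. Members, lists, length classes (10, 30, 60 and 100 kb) and thresholds were chosen with earlier results of these data known. All members are named, and of each pathway list the genes past 1.5-fold and the remaining gene of highest level; other genes are marked where named. With 1 array per group no test was run, and the number of arrays limits precision. Counting was checked on simulated data whose noise was smaller than the pooled SD over probe sets of a gene here, 0.29. That check covers the counting alone and gives no error rate for these data. Alternatives were other filters, probe set summaries, scalings (lowess fraction 0.3) and a 2-fold threshold. Python 3.11.15, pandas 2.3.3 and statsmodels 0.14.6 were used.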

Additional observations from a re-analysis of the deposited data

Results flagged for a closer look

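The poly-A spike control probe sets, which belong to no gene comparison, were higher on the anti-miR array than on the control array by a mean of 0.32 ± 0.19 (SD over 12 probe sets). The differences of TIMP1, PLAUR and MMP13 were smaller than this, and those of MMP1 and MMP9 were larger. All values of MMP1 and MMP9 lay within the nonspecific range, and MMP9 was retained through the anti-miR array alone.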

How the results depend on the processing

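No paired analysis was possible because there was 1 array per group, and none could be left out. PLAU was at least 1.5-fold lower, from -1.39 to -1.04, under every alternative that measured it; plain _at probe sets alone gave it no value. MMP1 ran from 0.35 to 0.76, and the count of 1 member higher became 0 with the 75th percentile filter, plain _at probe sets, either centring, the lowess trend, the 2-fold threshold, _s_at and _x_at probe sets left out, and probe sets above the nonspecific controls. The count of 1 member lower became 2, with TIMP2 at -1.02, with the 75th percentile filter, the probe set of highest level and probe sets above the nonspecific controls; it became 0 with plain _at probe sets, where 3 members were measured. TIMP2 was 0.20 without _s_at and _x_at probe sets. The member median of 0.21 became -0.21 with the 75th percentile filter, 0.015 with plain _at probe sets, 0.078 centred on the median gene, 0.0635 with the lowess trend removed, -0.37 with probe sets above the nonspecific controls and -0.026 centred on genes of similar length. The 75th percentile filter and the nonspecific limit measured fewer members, 6 and 5. Over all genes, 928 higher became 318 with plain _at probe sets, 499 centred on the median gene, 547 with the lowess trend and 139 at 2-fold, and 1602 lower became 507 with plain _at probe sets and 787 at 2-fold. Leaving out _s_at and _x_at probe sets, the nonspecific limit and centring by length were chosen after seeing the data. Signal over background limits MMP1, MMP9, MMP10, MMP13 and PLAUR most, since none of their probe sets was above the nonspecific controls.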

Other observations

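MMP1, MMP10 and MMP13 belong to a row of 9 neighbouring metalloproteinase genes on chromosome 11, which in the RefSeq table runs MMP7, MMP20, MMP27, MMP8, MMP10, MMP1, MMP3, MMP12 and MMP13. These genes had 20 probe sets, of which 3 were retained, 2 of MMP1 and 1 of MMP13. With all probe sets kept, 8 of the 9 genes had a higher mean on the anti-miR array, from 0.020 for MMP13 to 0.94 for MMP12, and MMP20 differed by -0.014. Positive values were usual on that array, with a median of 0.13 over all genes and 0.32 for the poly-A spikes. The share of all genes that were higher was not counted. Only 2 of the 9 genes had a retained probe set, and all 9 means lay within the nonspecific range. The count is thus not read as a result about this row. MMP12, the macrophage elastase, was named after its value was seen: its 1 probe set read 4.08 in anti-miR cells and 3.14 in control cells, below the median of both arrays. Next to it in the row, MMP3, a stromelysin, read 4.38 in anti-miR cells and 4.23 in control cells. Of the 9 genes, MMP1 and MMP12 alone exceeded 0.33, the upper quartile of all genes with a gene value. MMP12 has no gene value itself, so for it this sets a dim probe set beside retained ones.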
